A study of Homo sapiens with 9 samples.

Results

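The sestrins SESN1, SESN2 and SESN3, together with DDIT4, DEPTOR, the GATOR1 subunits NPRL2, NPRL3 and DEPDC5, and the Rag GTPases RRAGC and RRAGD, are 10 genes that act between amino acids and the kinase complex mTORC1. They were chosen by name and are 10 of the 22587 genes for which mRNA levels were given. The levels were measured by RNA-seq in HepG2, a human liver tumor cell line, as FPKM, the number of fragments scaled to transcript length and to the depth of the library, a unit that allows levels of different genes to be compared per length. All cells were grown in high-glucose DMEM with fetal bovine serum. The 3 groups of 3 libraries were cells with glutamine (Gln) added, cells deprived of Gln for 12 h and cells deprived of Gln for 24 h. The labels give GlutaMAX, a dipeptide source of Gln, as the supplement of the Gln-added cells, whereas the treatment text places it in the glutamine-free medium, so the exact medium of the control is not settled. No separate time is given for the control, which was the only reference for both times, and no label says that the libraries of a group came from separate cultures. The p-values below then measure the spread between these libraries, which may be technical. Fewer cells and less RNA per cell cannot be told apart in such bulk samples.

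The libraries held from 29618601 to 36258150 fragments on genes, as solved from the steps of the FPKM values. All 8 hepatocyte lineage markers were present, with ALB at a mean of 3831 FPKM with Gln added. In the test given below, 5 of them were lower after deprivation at each time and 0 were higher. For all genes tested the shares lower were 31.0% at 12 h and 31.7% at 24 h, and the shares higher 29.1% and 33.0%. Of 8 markers of other cells, 6 were genes of the table, and PECAM1, VWF, COL1A1, COL3A1 and PDGFRB stayed under 1 FPKM on average in every group. PDGFRB was nevertheless higher after deprivation, at a mean of 0.156 FPKM with Gln added, 0.385 FPKM at 12 h and 0.667 FPKM at 24 h, without overlap. When genes of any level were fitted, PDGFRB had a limma adjusted p of 0.00628 at 12 h and 2.25e-04 at 24 h. CD68, the only one of these markers above 1 FPKM, fell from 36.1 FPKM with Gln added to 29.6 FPKM at 12 h and 22.9 FPKM at 24 h. The part of these markers in the results was not tested.

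As background, mTORC1 is the growth-promoting form of the kinase mTOR, and it is switched on at the surface of the lysosome by dimers of the Rag GTPases, RRAGA or RRAGB paired with RRAGC or RRAGD. GATOR1 switches the Rag proteins off by acting on RRAGA and RRAGB, and GATOR2 opposes GATOR1. The sestrins bind GATOR2 and hold it back, and SESN2 and SESN1 release it when they bind leucine. DDIT4, also called REDD1, restrains mTORC1 through the TSC complex, and DEPTOR binds mTOR itself. SESN2 and DDIT4 are well known as genes that the stress factor ATF4 can induce.

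Of the 10 genes, SESN2, DDIT4, DEPTOR and RRAGC were higher after 12 h and after 24 h of Gln deprivation, and SESN1 was lower at both times. SESN2 rose 3.02-fold at 12 h and 3.14-fold at 24 h by the ratio of means, the largest change among the 10. DDIT4 followed with 2.14-fold and 1.92-fold. NPRL2 was slightly lower at 12 h, and NPRL3 and DEPDC5 passed the test at neither time. SESN3 and RRAGD were scarce, at no more than 0.210 FPKM in any library.

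The genes were tested with limma on log2(FPKM + 0.1), and a gene counts as called at a Benjamini-Hochberg adjusted p under 0.05 over the 11880 genes that averaged 0.5 FPKM or more. SESN3 and RRAGD did not reach that level, so 8 of the 10 were tested. At 12 h 6 of the 8 were called, 4 higher and 2 lower. Among all genes tested 60.2% were called at 12 h, with 29.1% higher and 31.0% lower. At 24 h 5 of the 8 were called, 4 higher and 1 lower, against 64.7% of all genes tested, with 33.0% higher and 31.7% lower. So many genes moved that a call alone sets none of the 8 apart. The median log2 fold change of the 8 genes was 0.19 at 12 h and 0.29 at 24 h, beside -0.02 and 0.01 over all genes tested. The libraries of deprived and Gln-added cells did not overlap for 5 of the 8 genes at 12 h, where 67.2% of all genes tested showed the same. At 24 h this held for 6 of the 8, against 69.9% of all genes.

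**Figure D1:**
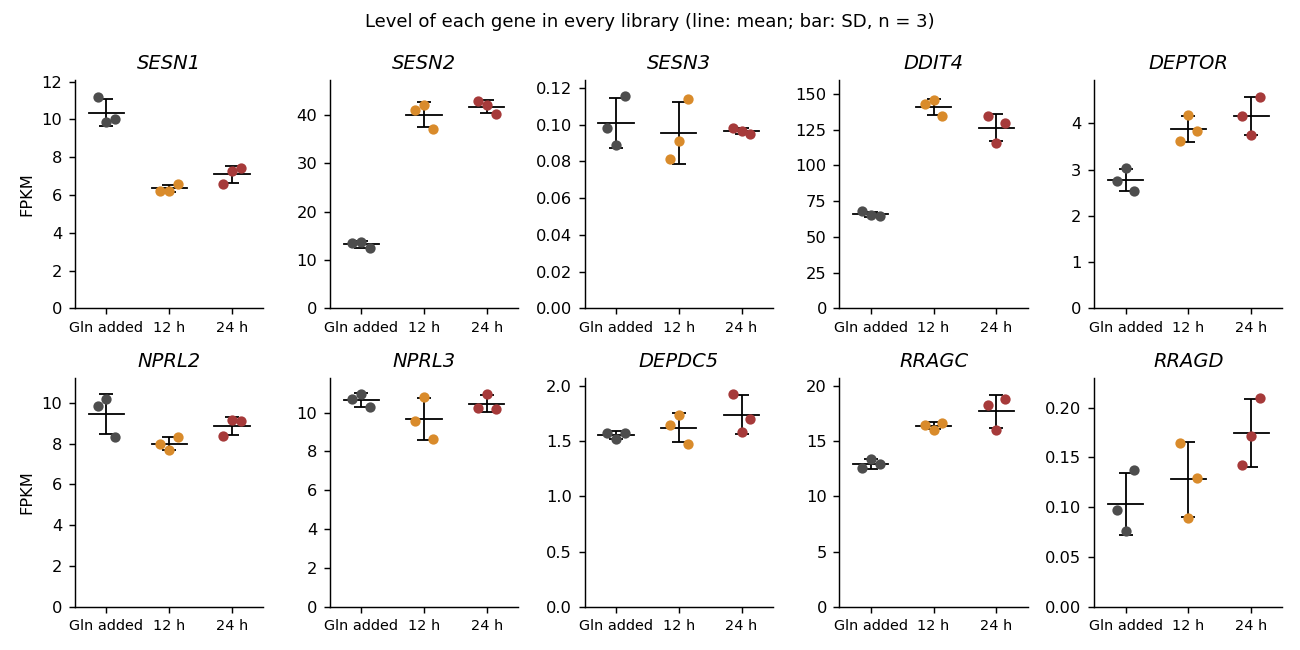
Level of each of the 10 genes in FPKM (vertical axes, each starting at 0) in every library with Gln added, after 12 h and after 24 h of Gln deprivation. Points are libraries, lines are means and bars are SD (n = 3); the deprived libraries of SESN2 lie between 37.1 and 42.8 FPKM, all above the Gln-added libraries at 12.5 to 13.8 FPKM.

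Promoter sequences of the most changed sestrins, of DDIT4 and of RRAGC are shown because SESN2, DDIT4 and RRAGC rose together while SESN1 fell. They are the 250 bases before the RefSeq start of each gene, 5′ to 3′ on the strand of the gene, in GRCh38.p14. The SESN2 stretch is chr1:28259268-28259517 on the plus strand, that of DDIT4 is chr10:72273674-72273923 on the plus strand, that of RRAGC is chr1:38859773-38860022 on the minus strand and that of SESN1 is chr6:109094847-109095096 on the minus strand, the outermost of its 3 windows. Capitals mark the AP-1 site TGAGTCA and the E-box CACGTG.
SESN2: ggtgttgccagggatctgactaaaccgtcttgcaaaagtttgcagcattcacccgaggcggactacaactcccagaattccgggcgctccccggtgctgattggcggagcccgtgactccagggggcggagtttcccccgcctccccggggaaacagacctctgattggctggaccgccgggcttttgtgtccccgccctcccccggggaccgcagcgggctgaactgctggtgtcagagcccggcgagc
DDIT4: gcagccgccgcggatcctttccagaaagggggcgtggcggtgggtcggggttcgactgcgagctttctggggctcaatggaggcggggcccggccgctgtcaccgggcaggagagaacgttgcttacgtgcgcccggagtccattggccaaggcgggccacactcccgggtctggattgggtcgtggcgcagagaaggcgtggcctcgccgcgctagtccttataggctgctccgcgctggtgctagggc
RRAGC: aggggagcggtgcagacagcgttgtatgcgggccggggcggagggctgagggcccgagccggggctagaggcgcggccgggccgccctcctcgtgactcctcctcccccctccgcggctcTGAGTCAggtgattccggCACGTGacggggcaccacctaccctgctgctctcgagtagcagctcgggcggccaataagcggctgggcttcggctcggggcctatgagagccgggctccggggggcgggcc
SESN1: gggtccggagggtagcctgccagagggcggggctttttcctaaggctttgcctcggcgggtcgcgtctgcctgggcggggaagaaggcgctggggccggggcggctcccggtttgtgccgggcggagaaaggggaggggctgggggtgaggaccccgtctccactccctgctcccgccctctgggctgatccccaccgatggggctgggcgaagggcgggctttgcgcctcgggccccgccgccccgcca

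Windows from 250 bases before to 50 bases after the start were found for 8 of the 10 genes. DEPTOR, which also rose, and RRAGD had no window and were not searched. The windows of the 8 genes were searched on both strands for 4 short motifs. These were TGATGNAA, the composite element of ATF4 and CHOP, TGANTCA, the AP-1 site, CACGTG, the E-box read by TFEB and TFE3, and GTAAACA, the FOXO site. They occur in 3.62%, 7.72%, 7.23% and 3.42% of the 34943 windows of all genes. RRAGC held an AP-1 site at positions -130 to -124 and an E-box at positions -112 to -107, counted from the start at 0. Before the start, 6.59% of all windows hold an AP-1 site, 6.32% an E-box and 0.312% both. The pair was not part of the planned search of single motifs, so its share is a description only. NPRL3 held an E-box after its start. The windows of SESN1, SESN2, SESN3, DDIT4, NPRL2 and DEPDC5 held none of these letters, which says nothing about the factors elsewhere in the genes. Such a match is a description of the sequence and was not tested as a binding site.

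Among the sestrins, SESN2 (chr1:28259518-28282491 in GRCh38, plus strand), a leucine-binding partner of GATOR2, was measured at 13.5, 13.8 and 12.5 FPKM with Gln added. The libraries at 12 h gave 41.1, 42.0 and 37.1 FPKM and those at 24 h gave 42.8, 42.0 and 40.2 FPKM. All deprived libraries were therefore far above the control libraries, and the libraries of both times overlapped. Against Gln added SESN2 changed by 1.59 on the log2 scale at 12 h (SE 0.055, limma adjusted p = 4.32e-09) and 1.65 at 24 h (limma adjusted p = 2.15e-09). Among the 11880 genes tested SESN2 ranked 68 from the highest change at 12 h and 87 at 24 h. Between 24 h and 12 h SESN2 differed by 0.06 on the log2 scale, with a 95% interval from -0.06 to 0.18 (limma adjusted p = 0.495).

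SESN1 (chr6:108984309-109094846, minus strand), a paralog of SESN2 that also binds GATOR2, moved the other way. Its levels were 11.2, 9.87 and 10.0 FPKM with Gln added, 6.22, 6.24 and 6.57 FPKM at 12 h and 6.58, 7.27 and 7.43 FPKM at 24 h. No deprived library reached the lowest control library. Its log2 fold change of -0.69 at 12 h (SE 0.064, limma adjusted p = 5.43e-06) was followed by -0.54 at 24 h (limma adjusted p = 2.76e-05). All 3 libraries at 24 h lay above those at 12 h, by 0.16 on the log2 scale (unadjusted p = 0.0326, limma adjusted p = 0.110). Without replicate 1 of the 24 h group this difference was 0.21 and passed the test (limma adjusted p = 0.0402). An antisense gene covers 4.99% of the SESN1 exons, and whether counting used the strand is not stated.

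SESN3 (chr11:95165513-95232541, minus strand), a sestrin known as a FOXO target, was scarce. Its level was 0.0889 to 0.116 FPKM with Gln added, 0.0812 to 0.114 FPKM at 12 h and 0.0948 to 0.0980 FPKM at 24 h, which correspond to 24 to 41 fragments in a library. The groups overlapped fully. When genes of any level were fitted, SESN3 gave log2 fold changes of -0.04 and -0.03 at 12 h and 24 h (limma adjusted p = 0.834 and 0.878), so no change was detectable at this depth.

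Since levels per length can be added up, the composition of sestrin mRNA was compared between the groups. Such comparisons between genes rest on the length counted for each, here 6097 bases for SESN1, 3462 for SESN2 and 9976 for SESN3. Which transcripts of each gene the cells used was not tested. With Gln added SESN2 made up 55.9% ± 1.84 (SD, n = 3) of the summed sestrin FPKM and SESN1 43.6% ± 1.81. The SESN2 share was 86.1% ± 1.20 at 12 h and 85.3% ± 1.15 at 24 h, and no deprived library overlapped a control library (two-sided exact permutation p = 0.1 at each time, the smallest that 3 libraries against 3 allow). The ratio of SESN2 to SESN1 stood at 1.28 ± 0.097 in the control, 6.32 ± 0.593 at 12 h and 5.90 ± 0.558 at 24 h. The summed sestrin level was 23.7 ± 1.09 FPKM in the control, 46.5 ± 2.38 FPKM at 12 h and 48.9 ± 1.01 FPKM at 24 h, without overlap with the control (exact permutation p = 0.1). The SESN2 share at 24 h differed from that at 12 h by -0.83 percentage points (exact permutation p = 0.4).

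**Figure D2:**
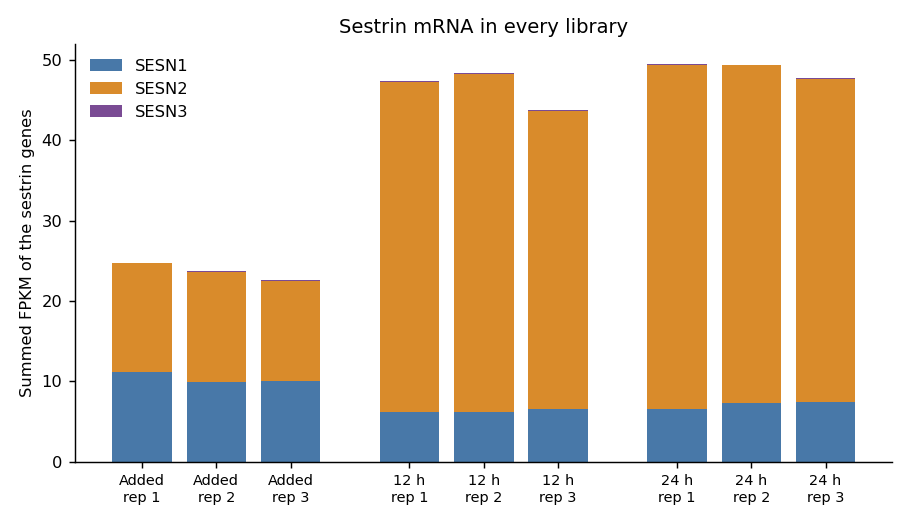
Summed FPKM of the sestrin genes (vertical axis) in each of the 9 libraries (horizontal axis; Added means Gln added), with SESN1, SESN2 and SESN3 stacked. The SESN2 segment is larger and the SESN1 segment smaller in every deprived library than in any control library, and SESN3 is too low to be seen clearly.

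DDIT4 (chr10:72273919-72276036, plus strand), the inhibitor that works through the TSC complex, was the most abundant of the 10 transcripts in every group. It stood at 67.8, 65.1 and 64.6 FPKM with Gln added, at 142.9, 146 and 135 FPKM at 12 h and at 134, 116 and 129.5 FPKM at 24 h. Every deprived library exceeded every control library. DDIT4 changed by 1.10 on the log2 scale at 12 h (SE 0.055, limma adjusted p = 5.85e-08) and 0.94 at 24 h (limma adjusted p = 1.18e-07). DDIT4 ranked 195 from the highest change at 12 h and 446 at 24 h. All libraries at 24 h lay below those at 12 h, by -0.16 on the log2 scale (unadjusted p = 0.0142, limma adjusted p = 0.0635), and this difference did pass the test in some alternatives. The adjusted p was 0.0482 without replicate 3 of the 12 h group and 0.0229 without replicate 1 of the 24 h group. No value of the paralog DDIT4L was analysed here.

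DEPTOR (chr8:119873717-120050918, plus strand), which binds mTOR in both of its complexes, was a low transcript with 233 to 409 fragments in a library. It measured 2.75, 3.03 and 2.55 FPKM with Gln added, 3.61, 4.19 and 3.85 FPKM at 12 h and 4.15, 3.76 and 4.56 FPKM at 24 h. The deprived libraries did not overlap the control libraries, whereas both times overlapped each other. The fitted change on the log2 scale was 0.47 at 12 h (SE 0.091, limma adjusted p = 0.00108) and 0.57 at 24 h (limma adjusted p = 2.60e-04). The antisense gene DEPTOR-AS1 overlaps 9.59% of its exons.

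The GATOR1 subunits form the complex that turns the Rag GTPases off, and they changed little. The first of them, NPRL2 (chr3:50347330-50350826, minus strand) was at 9.84, 10.2 and 8.31 FPKM with Gln added, 7.97, 7.69 and 8.32 FPKM at 12 h and 8.36, 9.16 and 9.08 FPKM at 24 h. Replicate 3 of the control lay within the range of the 12 h libraries, so the groups overlapped. The log2 fold change was -0.23 at 12 h (SE 0.075, limma adjusted p = 0.0201) and -0.08 at 24 h (limma adjusted p = 0.342). The call at 12 h rested on single libraries. The limma adjusted p was 0.0746 without control replicate 1, 0.0843 without control replicate 2 and 0.0690 without replicate 2 of the 12 h group. Without control replicate 3 NPRL2 was also called at 24 h, at -0.17 (limma adjusted p = 0.0327).

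NPRL3 (chr16:84271-138677, minus strand), the partner of NPRL2, measured 10.7, 11.0 and 10.3 FPKM with Gln added, 9.58, 10.8 and 8.62 FPKM at 12 h and 10.2, 11.0 and 10.2 FPKM at 24 h. The log2 fold change was -0.14 at 12 h, with a 95% interval from -0.31 to 0.02, and -0.03 at 24 h, from -0.19 to 0.14 (limma adjusted p = 0.117 and 0.774). Replicate 2 at 12 h lay inside the control range and the other two below it, and without that library NPRL3 was called lower at -0.23 (limma adjusted p = 0.0121). Genes on the opposite strand, MPG among them, cover 14.1% of the NPRL3 exons.

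DEPDC5 (chr22:31753867-31908033, plus strand), the subunit that contacts the Rag proteins, was the lowest of the GATOR1 transcripts. Its levels were 1.58, 1.51 and 1.58 FPKM with Gln added, 1.65, 1.73 and 1.48 FPKM at 12 h and 1.93, 1.58 and 1.70 FPKM at 24 h. The 24 h libraries lay just above the control libraries. The log2 fold change was 0.05 at 12 h (95% interval from -0.16 to 0.27, limma adjusted p = 0.668) and 0.15 at 24 h (from -0.07 to 0.36, limma adjusted p = 0.210). Genes on the same strand overlap 10.4% of its 17927 exonic bases in GENCODE, whereas the counted length was 7407 bases.

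RRAGC (chr1:38838198-38859772, minus strand), one of the Rag GTPases that complete the dimer on the lysosome, rose modestly. It measured 12.5, 13.4 and 12.9 FPKM with Gln added, 16.5, 16.0 and 16.6 FPKM at 12 h and 18.3, 16.0 and 18.8 FPKM at 24 h. No control library reached a deprived library. This rise was 0.34 on the log2 scale at 12 h (SE 0.059, limma adjusted p = 6.03e-04) and 0.44 at 24 h (limma adjusted p = 7.08e-05). The step from 12 h to 24 h was 0.11 (limma adjusted p = 0.242), and it was 0.18 and called without replicate 2 of the 24 h group (limma adjusted p = 0.0297). Another gene on the same strand shares 23.1% of the 5116 exonic bases of RRAGC in GENCODE. The length counted for RRAGC was only 2681 bases, so whether the shared stretch was counted is not known.

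RRAGD (chr6:89364616-89412273, minus strand), the paralog of RRAGC that TFEB and TFE3 are known to induce, was read at only 13 to 36 fragments in a library. It measured 0.0967, 0.0756 and 0.137 FPKM with Gln added, 0.165, 0.0896 and 0.130 FPKM at 12 h and 0.142, 0.171 and 0.210 FPKM at 24 h. The 24 h libraries lay above all control libraries and the 12 h libraries overlapped them. The ratio of means was 1.24 at 12 h and 1.69 at 24 h. When genes of any level were fitted, the log2 fold change at 24 h was 0.44 (unadjusted p = 0.0359, limma adjusted p = 0.0911), and at 12 h it was 0.16 (limma adjusted p = 0.556). RRAGD supplied 0.792% ± 0.245 of the summed RRAGC and RRAGD level in the control, 0.772% ± 0.216 after 12 h and 0.977% ± 0.180 after 24 h (SD, n = 3, exact permutation p = 0.9 and 0.2 against Gln added).

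**Figure D3:**
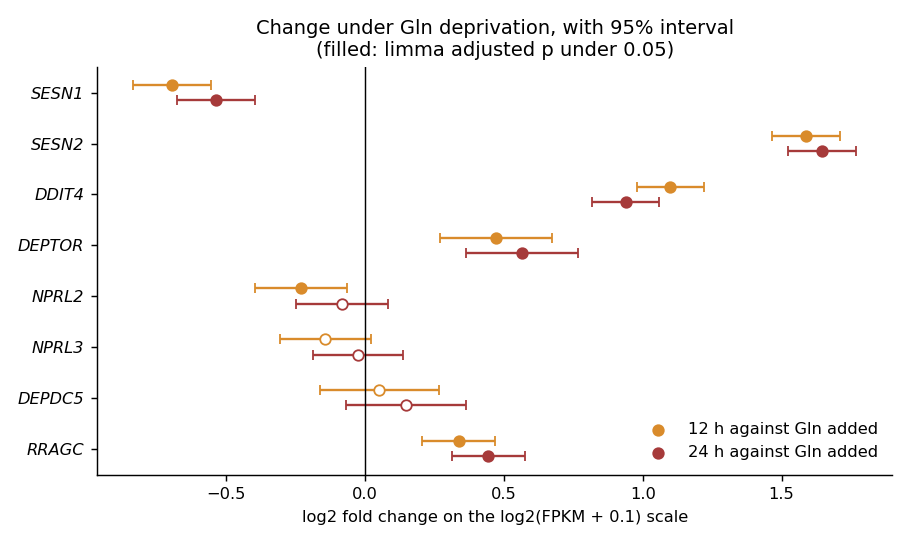
log2 fold change on the log2(FPKM + 0.1) scale (horizontal axis) of the 8 tested genes (vertical axis) at 12 h and at 24 h against Gln added, with 95% intervals; filled points have a limma adjusted p under 0.05. SESN2 lies furthest to the right at 1.59 and 1.65, and SESN1 furthest to the left at -0.69 and -0.54.

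Between 24 h and 12 h, 0 of the 8 tested genes were called by limma, against 20.1% of all genes tested. SESN1 and DDIT4 were the 2 with an unadjusted p under 0.05, and limma voom on the recovered fragments called 1, DDIT4. The count was 1 without replicate 3 of the 12 h group or replicate 2 of the 24 h group, and 2 without replicate 1 of the 24 h group. Libraries of the 2 times did not overlap for SESN1, DDIT4 and NPRL2, 3 of the 8 genes, where 34.4% of all genes tested showed the same.

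The order of levels per length was DDIT4, SESN2, RRAGC, NPRL3, SESN1, NPRL2, DEPTOR, DEPDC5, RRAGD and SESN3 with Gln added. In it SESN2 and RRAGC overlapped, as did NPRL3 with SESN1, SESN1 with NPRL2, and RRAGD with SESN3, and the other neighbours did not overlap. After 12 h and 24 h of deprivation SESN2 stood above RRAGC without overlap, and SESN1 stood below NPRL2 without overlap. RRAGD and SESN3 overlapped at 12 h and were separate at 24 h.

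The other genes of the pathway were taken from a list of 44, of which 41 were tested, since CASTOR1, TBC1D7 and PRR5L were below 0.5 FPKM. At 12 h 25 were called, 16 higher and 9 lower, and at 24 h 24 were called, 15 higher and 9 lower. The total called was near the 60.2% and 64.7% of all genes tested. Fewer were lower than among all genes, 9 of 41 at each time against 31.0% and 31.7%, and more were higher, 16 and 15 of 41 against 29.1% and 33.0%, differences that were not tested. The list's median change on the log2 scale was 0.03 after 12 h and 0.05 after 24 h. The largest changes were rises of 3 of the 7 mTORC1 substrates listed. GRB10, an adaptor that mTORC1 stabilises, went from 0.875 to 0.921 FPKM with Gln added to 2.64 to 2.72 FPKM at 12 h and 2.65 to 3.05 FPKM at 24 h (log2 fold change 1.47 and 1.55, limma adjusted p = 8.85e-08 and 3.60e-08). ULK1, the kinase that starts autophagy, changed by 1.25 and 1.27 (limma adjusted p = 1.02e-07 and 5.62e-08). EIF4EBP1, the translation repressor that mTORC1 phosphorylates, changed by 1.16 and 1.17 (limma adjusted p = 3.49e-08 and 2.11e-08). Of the 7 substrates 5 were called at 12 h, 3 higher and 2 lower, and 4 at 24 h, 3 higher and 1 lower. Of all genes tested 60.2% and 64.7% were called, with 29.1% and 33.0% higher and 31.0% and 31.7% lower. The median log2 fold change of the 7 was 0.04 at 12 h and 0.12 at 24 h.

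The Ragulator, the scaffold that holds the Rag GTPases on the lysosome, had 3 of 5 subunits lower and 1 higher at both times. Over all genes tested, 31.0% were lower and 29.1% higher at 12 h, and 31.7% lower and 33.0% higher at 24 h. LAMTOR4 was at 25.0, 26.3 and 26.2 FPKM with Gln added, 17.0, 17.8 and 17.6 FPKM at 12 h and 16.4, 13.1 and 19.0 FPKM at 24 h, so all deprived libraries were lower. LAMTOR4 thus changed by -0.56 and -0.69 on the log2 scale (limma adjusted p = 7.67e-04 and 1.59e-04). LAMTOR2 gave -0.39 at 12 h and -0.50 at 24 h (limma adjusted p = 9.63e-04 and 1.51e-04). RRAGA, the dimer partner of RRAGC and RRAGD, was lower at -0.46 and -0.33 (limma adjusted p = 9.63e-06 and 7.54e-05), whereas its paralog RRAGB was higher at 0.18 and 0.27 (limma adjusted p = 0.0338 and 0.00474). RRAGC and RRAGA thus moved in opposite directions at both times.

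Among the remaining groups, GATOR2, the target of the sestrins, had 3 of 5 subunits called at each time, 2 higher and 1 lower, a share close to the 60.2% and 64.7% of all genes called. Of 8 tested sensors and folliculin complex genes, 4 were higher at both times, beside 29.1% and 33.0% of all genes tested. In this group 0 were lower, beside 31.0% and 31.7%. CASTOR1, the arginine sensor of this group, was below the level tested, with 11 to 29 fragments in a library. It was nevertheless lower at 12 h without overlap, at a mean of 0.236 FPKM against 0.495 FPKM with Gln added, and stood at 0.435 FPKM at 24 h. When genes of any level were fitted, its log2 fold change was -0.82 at 12 h (limma adjusted p = 0.00290), -0.15 at 24 h (limma adjusted p = 0.507) and 0.67 between the times (limma adjusted p = 0.0295). In the TSC and Rheb group TSC2 was higher at both times and RHEB at 12 h, among 3 tested. Higher calls made up 29.1% and 33.0% of all genes tested. Of 7 mTOR complex genes, 4 were called at 12 h, 2 higher and 2 lower, and 5 at 24 h, 2 higher and 3 lower. Among all genes tested 60.2% and 64.7% were called. MLST8, a core subunit of both complexes, averaged 11.1 FPKM with Gln added, 8.66 FPKM at 12 h and 8.35 FPKM at 24 h. Its log2 fold change at 24 h was -0.41 (limma adjusted p = 8.54e-04). LPIN1, a substrate that controls lipid synthesis, was at -0.43 at 12 h (limma adjusted p = 5.24e-05) and at -0.04 at 24 h (limma adjusted p = 0.518).

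**Figure D4:**
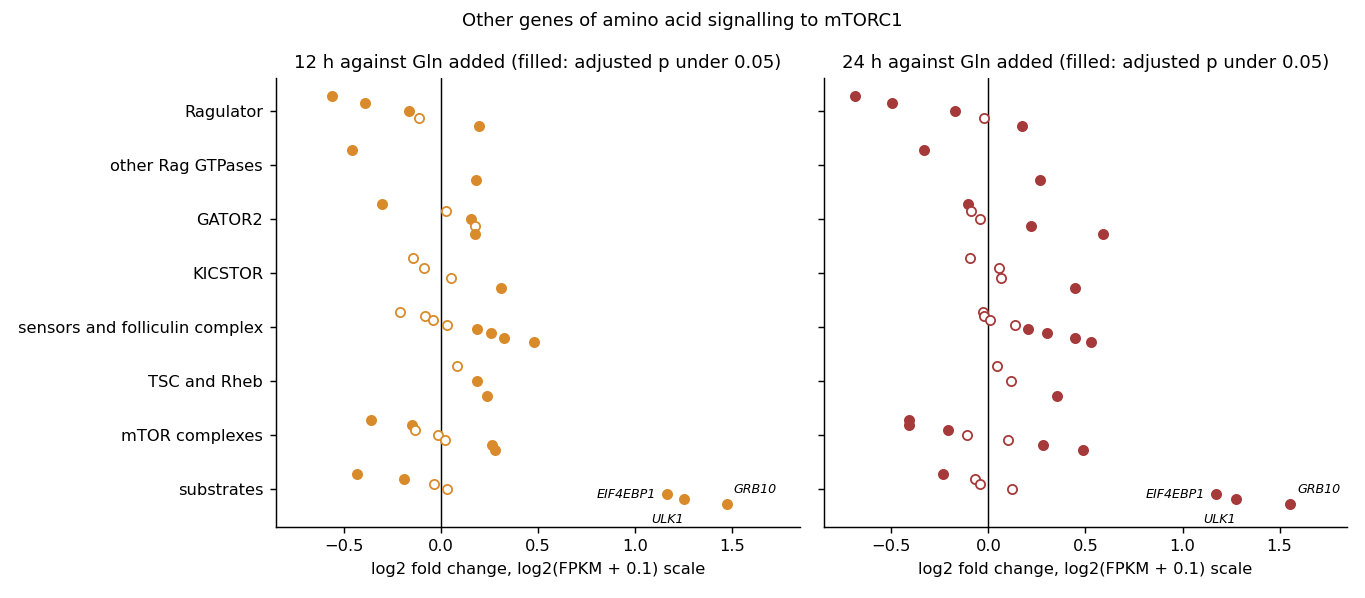
log2 fold change on the log2(FPKM + 0.1) scale (horizontal axes) of the 41 tested pathway genes, by complex (vertical axis), at 12 h (left) and 24 h (right) against Gln added; filled points have a limma adjusted p under 0.05. The substrates GRB10, ULK1 and EIF4EBP1 are the only ones beyond 1 in either direction, and most Ragulator points lie below 0.

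Transcription factors that textbooks link to these genes were read beside them. Of the listed factors 6 were higher at both times, beside 29.1% of all genes tested at 12 h and 33.0% at 24 h. TFEB did not pass the test, and MITF stayed near 0.1 FPKM and was not tested. ATF4, linked to SESN2 and DDIT4, measured 41.0, 42.3 and 42.3 FPKM with Gln added, 77.2, 79.5 and 75.5 FPKM at 12 h and 75.4, 76.7 and 74.5 FPKM at 24 h. It was thus well above control in every deprived library (log2 fold change 0.88 and 0.85, limma adjusted p = 7.51e-09 and 5.92e-09). FOXO3 rose by 0.76 and 0.79 and FOXO1 by 0.25 and 0.30 on the log2 scale, while SESN3 stayed at 0.1 FPKM. TFE3 rose by 0.77 and 0.71, NFE2L2 by 0.51 and 0.45 and HIF1A by 0.24 and 0.41. TFEB was at 0.21 and 0.23 (limma adjusted p = 0.0797 and 0.0543), and several alternatives did call it. Without replicate 3 of the 12 h group the limma adjusted p was 0.00913 at 12 h and 0.0199 at 24 h, and without replicate 1 of that group it was 0.0303 at 24 h. Whether any of these factors acts on the genes was not tested.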

How the data were processed

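RNA-seq of 9 HepG2 libraries was used. The methods give STAR alignment to GRCh38 and DESeq2, and the submitters' processing notes name HTSeq and R 3.2.0. The library kit differs between the methods and the labels, and the annotation and the strand setting of the counting are not given in the sources used here. The deposited values were FPKM, given by the authors for each gene in each library, with 0 columns that could not be matched to a sample and no columns of the authors' own comparisons. No further scaling is stated.

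Since FPKM are not counts, limma 3.58.1 in R 4.3.3 (lmFit, eBayes with trend) was run on log2(FPKM + 0.1). The 11880 genes that averaged 0.5 FPKM or more were tested, all 3 groups were fitted jointly, and p-values were adjusted by Benjamini-Hochberg. This scale understates changes of genes near 0.1 FPKM. Whole fragments were recovered from the FPKM steps for 100% of genes (tolerance 0.02 fragments) and gave the depth. The scripts were tested on simulated data. Replicates differed by more than sampling noise (chi-square per degree of freedom 2.88 to 14.4), so none was merged. Shares were compared by two-sided exact permutation (scipy 1.17.1 in Python 3.11.15), and figures were drawn with matplotlib 3.10.9. Gene positions are from GENCODE 44 and promoter sequences from RefSeq. Exon overlaps were taken on GENCODE 44 exons, which for every gene but SESN2 are longer than the length counted in the FPKM.

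The genes and lists were chosen with earlier results of these data known. All 10 genes were named, with the 3 most changed called pathway genes in each direction and time, the listed factors, and the 3 genes most alike to each member called with a change of at least 0.5. Other genes were named after their values were seen, and some results under these rules are not reported here. Alternatives covered pseudocounts of 0.01 and 1, filters, scaling, the groups in the fit, the trend, voom, a replicate block and leaving out each library.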

Additional observations from a re-analysis of the deposited data

Results flagged for a closer look

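Among the 41 tested pathway genes, 6 differed between 24 h and 12 h of Gln deprivation, which means that their changes against the shared Gln-added libraries differed between the times (limma, Benjamini-Hochberg adjusted over all genes tested). Among all genes tested 20.1% were called between the times, a larger share than 6 of 41. The 8 tested sestrin, GATOR1, DDIT4, DEPTOR and Rag genes had 0 such calls. In GATOR2, WDR24 was 0.41 higher on the log2 scale at 24 h than at 12 h (limma adjusted p = 0.00932), SEC13 was 0.20 higher (limma adjusted p = 0.00945) and MIOS was at -0.20 (limma adjusted p = 0.0317). FNIP2, a partner of folliculin, was 0.26 higher (limma adjusted p = 0.0245). PRR5, a subunit of mTORC2, was at -0.39 (limma adjusted p = 0.00353), and LPIN1 was 0.39 higher (limma adjusted p = 6.89e-04). The differences of MIOS and FNIP2 lost the call when single libraries were left out.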

How the results depend on the processing

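Of 1457 values recomputed for 85 results, 1416 counted as unchanged, by rules that differed between kinds of result. A tested gene had to keep its direction and its side of the threshold. Counts of called genes only had to stay within a set fold range, so they could still move. Shares, and genes too low to be tested, mostly had to shift by less than the larger group SD. Between 24 h and 12 h, 0 of the 8 genes were called, and 1 under median-ratio scaling and under voom on recovered fragments (DDIT4 in both, limma adjusted p = 0.0383 and 0.0345), and 0 to 2 when a library was left out. With FPKM rescaled to the same total, NPRL3 at 24 h was 0.021 and LPIN1 at 24 h was 0.0052, both turned in direction and not called, and TFEB was called at 12 h and 24 h (limma adjusted p = 0.0411 and 0.0214). TFEB at 24 h was also called with only the groups compared in the fit, with voom and with the replicate block (adjusted p = 0.0210, 0.0482 and 0.0485). RRAGD at 24 h was 0.09 with a pseudocount of 1 and 0.72 with 0.01. Leaving out single libraries gave 5 to 6 called genes at 12 h and at 24 h. Whether the replicate numbers pair the libraries is not known, and so few libraries cannot settle it. Of 9 same-numbered pairs, 2 had a correlation of deviations over 0.1, with a range from -0.136 to 0.283. Pairs with different numbers ranged from -0.467 to 0.296. With the replicate number as a block, 7, 5 and 0 of the 8 genes were called at 12 h, at 24 h and between the times, NPRL3 being the addition at 12 h (limma adjusted p = 0.0458). Over all genes tested the block gave 7341, 7802 and 2586 calls, beside 7147, 7686 and 2386 without it. Why these calls moved was not tested. SESN3 and RRAGD, at 13 to 41 fragments in a library, set the limit of depth here.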

Other observations

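The genes whose levels tracked the 4 most changed genes across the 9 libraries are given as a description, by Pearson's r on the log2(FPKM + 0.1) scale. The libraries share their groups and Gln-added controls, so genes that move between groups correlate for that reason alone. SESN2 was tracked closely by PHC2 (r = 0.9991) and the glutamine transporter SLC1A5 (r = 0.9987), whose mean level went from 39.0 FPKM with Gln added to 91.5 FPKM at 12 h and 93.9 FPKM at 24 h. DDIT4 was closest to AXIN1, SNHG32 and CSNK2A1 (r = 0.997 for each). For SESN1 the closest were SC5D, an enzyme of cholesterol synthesis, at r = 0.991, MINPP1 at 0.990 and CHST15 at 0.988. SC5D stood at 16.2 FPKM with Gln added, 8.74 FPKM at 12 h and 10.0 FPKM at 24 h. DEPTOR was closest to LOC105379362 (r = 0.989), IST1 (r = 0.982) and CCDC9 (r = 0.979).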
